A study of Mus musculus with 2 samples.

Results

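The nuclear noncoding RNAs Rn7sk, Rmrp, Rpph1, Terc, Malat1 and Neat1 were described, taken by gene symbol and chosen with earlier results of these data known. The 6 symbols stand for 7 of 55450 annotated gene records, because Rmrp has 2 records. The RNA came from 2 samples of adrenal gland, taken at an age of 4 days from female mice of the hybrid strain B6CASTF1/J. That hybrid is the first generation of a cross between a laboratory and a wild-derived strain. The samples form 1 group of 2 replicates with no treatment, genotype contrast or other condition. Levels, their spread and their dependence on the counting are therefore a description, and no test between conditions was possible. Per the labels, the libraries were made from 300 ng of RNA, were stranded and reduced in ribosomal RNA, and carried ERCC spike-ins. The library text names the same animal for both replicates while the tissue text names different animals, and both share a donor record, so the spread may be between animals or within 1.

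Rn7sk is the RNA of the 7SK particle, which holds the elongation kinase P-TEFb inactive and so restrains transcription by RNA polymerase II. Rpph1 is the catalytic RNA of RNase P, which trims the 5′ end of transfer RNA precursors, and Rmrp is the related RNA of RNase MRP, which cuts ribosomal RNA precursors. Terc is the RNA of telomerase and holds the template for telomere repeats. Malat1 is a long RNA of nuclear speckles. Neat1 is the scaffold of paraspeckles, and its long isoform is the one needed to build them. Rn7sk, Rpph1 and Rmrp are made by RNA polymerase III, and the others by RNA polymerase II.

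All 6 genes lie on the minus strand of mm10 in the GENCODE M21 annotation. Rn7sk, a misc_RNA gene (ENSMUSG00000065037.1), is a single exon at chr9:78175303-78175633. Rpph1, a ribozyme gene (ENSMUSG00000092837.1), is a single exon at chr14:50807449-50807767. Rmrp is annotated as a ribozyme (ENSMUSG00000088088.1) and again as a lincRNA (ENSMUSG00000115420.1), both within chr4:43492783-43493063. Terc (ENSMUSG00000064796.1) is a misc_RNA gene at chr3:96414437-96414859. Malat1 (ENSMUSG00000092341.3) is a lincRNA gene at chr19:5795690-5802672, and Neat1 (ENSMUSG00000092274.3) is a lincRNA gene at chr19:5824708-5845478. The longest transcripts had 331, 319, 281, 423, 6983 and 20771 bases in the order Rn7sk, Rpph1, Rmrp, Terc, Malat1 and Neat1.

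The sequences of the 4 short RNAs are shown because reads can be divided among overlapping or near-identical records, which bears on every count below. They come from the GENCODE M21 transcripts, are written 5′ to 3′ as DNA letters, and lie on the minus strand of mm10. In Rn7sk, bases 32 to 331 are shown (chr9:78175303-78175602), and capitals mark the 90 bases that lie beyond the stretch identical to its copy Gm24447. In Rpph1, bases 1 to 300 are shown (chr14:50807468-50807767), and capitals mark the 233 bases that are also an exon of the protein-coding gene Ccnb1ip1 on the same strand. In Rmrp, the whole lincRNA record is shown (chr4:43492783-43493063), and capitals mark the 5 bases at each end that the ribozyme record lacks. In Terc, bases 1 to 100 are shown (chr3:96414760-96414859), and capitals mark the longest run of the CCCTAA repeat, which is complementary to the telomere repeat.
Rn7sk: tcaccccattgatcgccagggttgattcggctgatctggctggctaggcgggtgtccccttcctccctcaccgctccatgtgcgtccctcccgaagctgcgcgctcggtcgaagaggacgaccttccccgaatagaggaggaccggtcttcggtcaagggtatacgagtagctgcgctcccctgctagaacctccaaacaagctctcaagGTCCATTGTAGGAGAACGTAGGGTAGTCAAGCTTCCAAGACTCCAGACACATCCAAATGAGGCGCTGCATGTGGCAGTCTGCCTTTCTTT
Rpph1: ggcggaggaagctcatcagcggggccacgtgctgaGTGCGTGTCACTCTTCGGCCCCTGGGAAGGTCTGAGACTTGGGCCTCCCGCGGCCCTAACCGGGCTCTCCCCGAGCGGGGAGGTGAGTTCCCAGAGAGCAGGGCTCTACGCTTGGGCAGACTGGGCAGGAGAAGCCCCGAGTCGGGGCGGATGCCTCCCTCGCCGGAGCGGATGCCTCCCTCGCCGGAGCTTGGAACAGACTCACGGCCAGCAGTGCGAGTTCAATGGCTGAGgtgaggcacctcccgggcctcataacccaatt
Rmrp: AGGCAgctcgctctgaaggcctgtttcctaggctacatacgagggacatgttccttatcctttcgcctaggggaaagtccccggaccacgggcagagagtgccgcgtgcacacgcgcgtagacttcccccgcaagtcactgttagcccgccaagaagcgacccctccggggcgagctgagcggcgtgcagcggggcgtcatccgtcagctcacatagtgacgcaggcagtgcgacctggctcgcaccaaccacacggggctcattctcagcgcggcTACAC
Terc: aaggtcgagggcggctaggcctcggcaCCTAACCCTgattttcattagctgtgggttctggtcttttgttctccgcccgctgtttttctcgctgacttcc

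The records of Rmrp differ by only 10 bases of 281, so a read can tell them apart only at its outermost ends. In Terc, the run CCTAACCCT stands at bases 28 to 36. That run was found in the first 100 bases of 0.0359% of 139316 annotated transcripts of at least that length, and on either strand in 0.0581%. GENCODE starts Terc 26 bases upstream of the RefSeq start on the same build, so the run starts at base 2 of the RefSeq transcript of 397 bases.

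**Figure D1:**
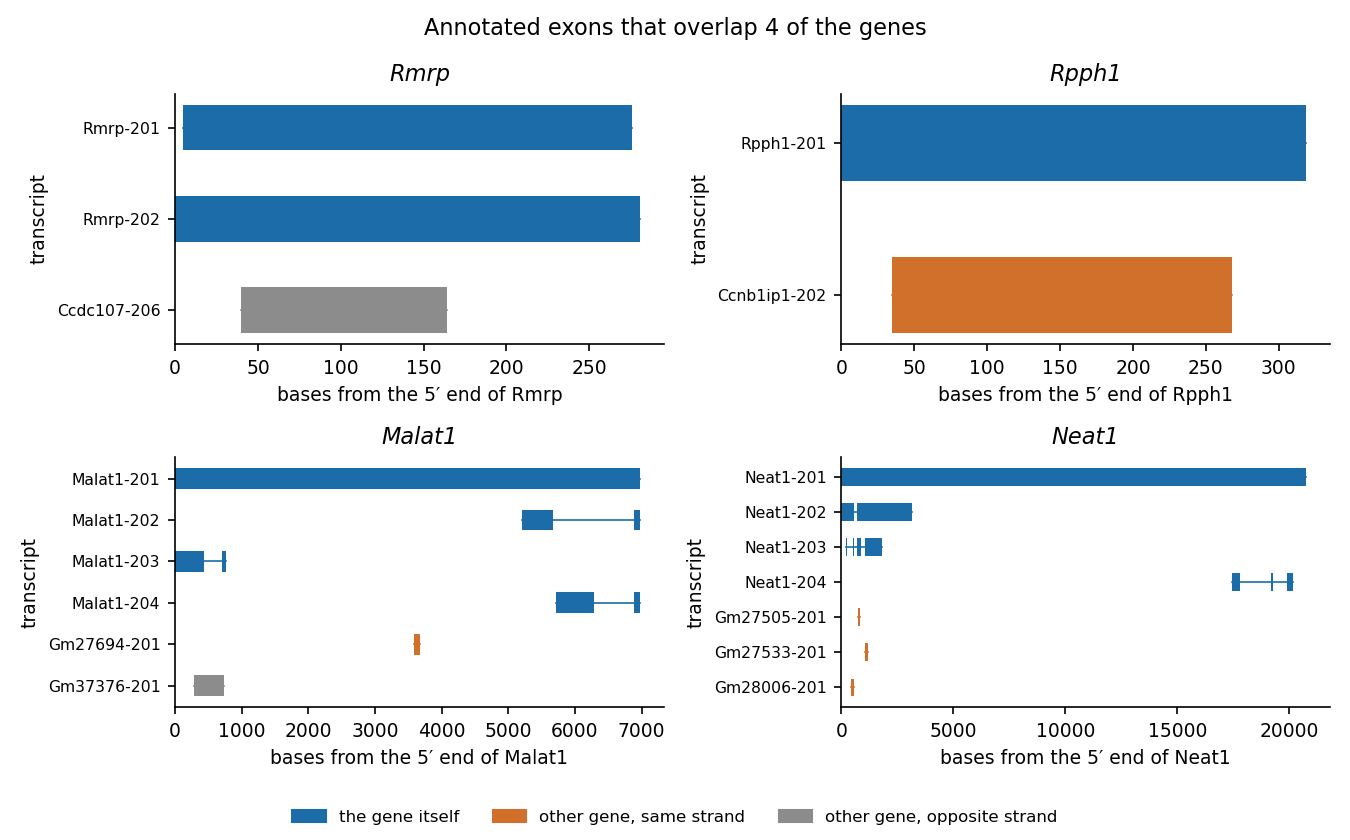
Annotated exons of Rmrp, Rpph1, Malat1 and Neat1 and of genes that overlap them, drawn by distance in bases from the 5′ end of the gene on its own strand. Blue bars are exons of the gene, orange bars are exons of another gene on the same strand, grey bars are exons on the opposite strand, and thin lines are introns. The records of Rmrp share 271 bases, and the short transcripts of Malat1 lie inside the full-length one.

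Levels are given in TPM, transcripts per 1000000, which corrects a count for transcript length and library size and so allows levels of different genes to be set side by side. The gene tables held 31838341 expected counts in replicate 1 and 32931868 in replicate 2. A second set of deposited tables, made from the read files by another method, held 32074016 and 32964074 estimated counts. With a count of 0 in a gene table, a share of up to 3 counts is still possible, which is 9.42e-06% in replicate 1 and 9.11e-06% in replicate 2. Every interval given is a 95% exact interval that covers counting error only. Intervals of ratios between replicates are Clopper-Pearson intervals. Those of folds between the tables are Poisson intervals of the count in the second tables, with the count in the gene tables held fixed. Both kinds of table count the same reads, so these intervals are not the error of a ratio of independent counts. Of the markers of the labelled tissue, 6 of 6 adrenal cortex genes and 5 of 5 medulla genes were at 1 TPM or more in both replicates. The replicates differed in markers of neighbouring tissues. The summed level was 3611 TPM in replicate 1 and 0.49 TPM in replicate 2 for 5 pancreas genes, of which Cela2a, Ins2 and Prss2 had 0 counts in replicate 2. It was 86.4 and 8.83 TPM for 5 kidney genes, 91.3 and 366 TPM for 4 liver genes, 208 and 1358 TPM for 4 skeletal muscle genes, and 3640 and 2625 TPM for 3 red blood cell genes.

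In the gene tables the order of the 6 RNAs by TPM was the same in both replicates: Rn7sk, Rmrp, Rpph1, Malat1, Neat1 and Terc. Rn7sk had 58973 TPM in replicate 1 against 53120 TPM in replicate 2, a mean of 56047 ± 4139 (SD, n = 2). It ranked 3 among annotated genes in both, and its 421259 and 392360 expected counts were 1.26 ± 0.0931% of all counts (SD, n = 2). Rmrp, summed over its records, reached 12608 and 10982 TPM, a mean of 11795 ± 1149 (SD, n = 2). Rpph1 reached 10075 and 9915 TPM, a mean of 9995 ± 113 (SD, n = 2), and ranked 7 in both. Rmrp was thus above Rpph1 in each replicate, and the replicates of the genes did not overlap, although Rpph1 had the higher expected counts, 68247 and 69446, against 67948 and 61361 for Rmrp, which is the shorter RNA.

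Malat1 stood at 4023 and 3119 TPM in replicates 1 and 2, a mean of 3571 ± 639 (SD, n = 2). In counts it was among the leading genes, at rank 7 and 8, with 400463 and 311472 expected counts. Neat1 stood at 103 and 87.7 TPM, a mean of 95.3 ± 10.7 (SD, n = 2), with 26316 and 18081 expected counts. Terc was the lowest, at 15.8 and 18.7 TPM, a mean of 17.3 ± 2.03 (SD, n = 2), from 158 and 193 expected counts. No pair of neighbours in the order overlapped between replicates in the gene tables.

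**Figure D2:**
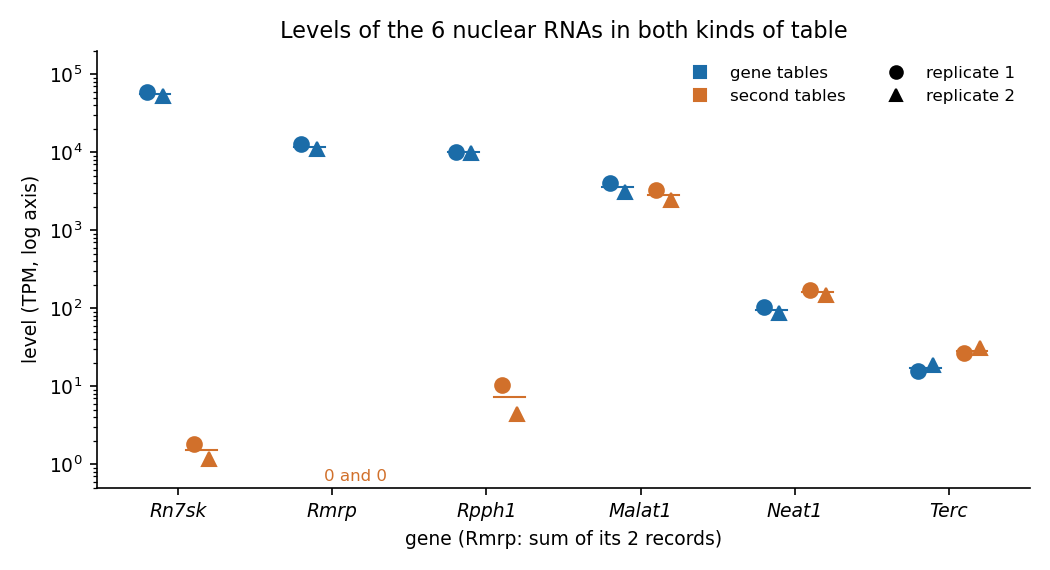
Level of each RNA in TPM on a log axis, from the gene tables (blue) and the second tables (orange), with circles for replicate 1, triangles for replicate 2 and a line at their mean. Rn7sk, Rmrp and Rpph1 are the 3 highest in the gene tables and the 3 lowest in the second tables, where Rmrp is at 0 in both replicates.

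The second tables gave another order: Malat1, Neat1, Terc, Rpph1, Rn7sk and Rmrp. Rn7sk had 3 estimated counts in replicate 1 and 2 in replicate 2, or 1.83 and 1.18 TPM. Its counts in the gene tables were 140420-fold those of the second tables in replicate 1 (interval 48049 to 680908) and 196180-fold in replicate 2 (interval 54308 to 1619922). Rpph1 had 16 and 7 estimated counts, or 10.4 and 4.36 TPM, and its counts in the gene tables were 4265-fold higher (interval 2627 to 7462) and 9921-fold higher (interval 4815 to 24676). Rmrp had 0 counts in the second tables under both records and in both replicates. With 3 counts per library taken in place of 0, its counts in the gene tables were 22649-fold and 20454-fold higher. Its TPM was then 5240-fold and 4744-fold higher. The Poisson intervals used for Rn7sk and Rpph1 gave lower limits of 18420-fold and 16634-fold for the counts of Rmrp.

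Together Rn7sk, Rpph1 and Rmrp took 557453 and 523168 expected counts in the gene tables, 1.67 ± 0.115% of the total (SD, n = 2), against 19 and 9 estimated counts in the second tables. By TPM they summed to 81656 and 74017 in the gene tables, against 12.2 and 5.54 in the second tables. The difference between the tables was thus far larger for these RNAs than the spread between the replicates.

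Terc, the longest of the 4 short RNAs, was counted in both kinds of table. Its 158 and 193 expected counts in the gene tables stood against 69 and 82 estimated counts in the second tables, a fold of 2.29 (interval 1.81 to 2.94) and 2.35 (interval 1.90 to 2.96). By TPM the direction was the opposite, with 15.8 and 18.7 in the gene tables against 26.7 and 30.6 in the second tables. The effective length, the number of positions a fragment can start from, was 324 bases for Terc in the gene tables against 122 and 121 bases in the second tables. For Rn7sk it was 232 bases in the gene tables against 77.1 and 77.0 bases in the second tables.

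The long RNAs had similar counts in both kinds of table. Malat1 had 400463 and 311472 expected counts in the gene tables against 457127 and 355639 estimated counts in the second tables, a log2 ratio of -0.19 in both replicates. Neat1 had 26316 and 18081 expected counts in the gene tables against 29771 and 20526 estimated counts in the second tables, a log2 ratio of -0.18 in both. By TPM, Malat1 was higher in the gene tables, 4023 and 3119 against 3248 and 2429, and Neat1 was lower, 103 and 87.7 against 170 and 150. The scale of the tables itself differs: over the 13969 genes whose mean count reached 100, the gene tables over the second tables had a median log2 TPM ratio of -0.87 in replicate 1 and -0.85 in replicate 2. Relative to that median, the log2 ratio was 1.18 and 1.21 for Malat1, 0.15 and 0.08 for Neat1, and 0.12 and 0.14 for Terc.

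By the rule of a 2-fold higher TPM in the gene tables in both replicates, Rn7sk, Rpph1 and both records of Rmrp were called and Terc, Malat1 and Neat1 were not. All 7 records passed the minimum mean count, but the 4 called ones passed only through the gene tables and so had to differ; Terc, too, had under 100 counts in the second tables. Over all 13969 genes, 1.46% were called higher and 23.7% lower by the same rule. By counts alone 1.98% were called higher and 1.87% lower; Rn7sk, Rpph1, Rmrp and Terc were called higher, each having passed the minimum through the gene tables. Read by length, all of the 34 genes whose longest transcript has 200 to under 300 bases, the class of Rmrp, were called higher (100%), and 33 of them had at most 3 counts in both second tables. Called higher were also 63.3% of the 49 genes of 300 to under 400 bases, the class of Rn7sk and Rpph1, of which 25 had at most 3 counts in both second tables. Such genes pass the minimum count only through the gene tables, so these shares are a description and lend the members no support. Of the 80 genes of 400 to under 500 bases, the class of Terc, 37.5% were called higher, and Terc was not among them. Genes under 400 bases held 47.5% and 47.0% of all TPM in the gene tables against 0.646% and 0.655% in the second tables.

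**Figure D3:**
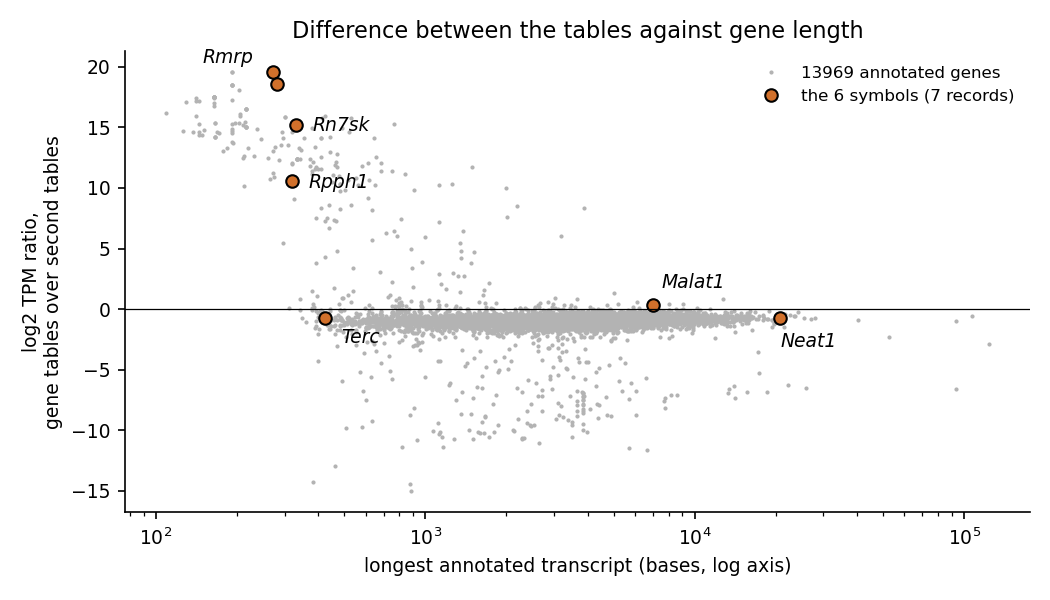
Log2 ratio of TPM, gene tables over second tables, averaged over the replicates, against the longest annotated transcript of each gene in bases on a log axis, for 13969 genes (grey) and the 7 records (orange). A pseudocount of 0.01 TPM was added, so the height of genes at 0 in the second tables, Rmrp among them, is set by that value. Rn7sk, Rpph1 and Rmrp sit with other genes under 400 bases far above 0, while Terc and Neat1 lie near the band of all genes. Malat1 lies above it, 1.18 and 1.21 over the median log2 ratio of all genes in replicates 1 and 2.

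The genes nearest in length to each short RNA were taken from those with at least 100 expected counts in both gene tables, so their lower counts in the second tables are a description and no support. Nearest to Rn7sk were the processed pseudogenes Gm4617, Mpc1-ps and Rpl35a-ps3, with 102 to 401 expected counts in the gene tables and 0 in the second tables. Nearest to Rpph1 were the pseudogenes Gm10108, BC002163 and Rpl36a-ps2, the last with 1765 and 1763 expected counts against 0 and 0. Nearest to the ribozyme record of Rmrp were the small nucleolar RNA Gm23547 and the small Cajal body RNAs Gm25395 and Scarna13. Scarna13 had 967 and 927 expected counts in the gene tables against 1 and 0 in the second tables. Nearest to the lincRNA record were Scarna13 and the pseudogenes Gm4149 and Gm10241, both at 0 in the second tables. Terc differed from its neighbours, the pseudogenes Gm5526, Gm9794 and Rps23-ps1. Gm9794 had 902 and 1018 expected counts in the gene tables against 20.3 and 7.79 in the second tables, and Rps23-ps1 had 6492 and 6659 against 0 and 0. Pseudogenes can share reads with their parent genes, so their counts are uncertain, and this sharing was not tested as a part of the difference.

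Reads of Rmrp were divided between its records in the gene tables. The ribozyme record took 46457 and 39115 expected counts, and the lincRNA record 21491 and 22246. The authors' posterior SD of the count was the same for both records, 655 in replicate 1 and 581 in replicate 2, against 3.85 and 4.13 for Rn7sk, which has more reads. Only the sum, 67948 and 61361, is therefore used as the level of Rmrp. The antisense neighbour Ccdc107, a protein-coding gene with exons opposite Rmrp, had 335 and 358 expected counts in the gene tables and 296 and 325 estimated counts in the second tables.

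The gene that overlaps Rpph1 on the same strand and the closest copies of Rn7sk were assigned few counts. How many shared reads were assigned to Rpph1 or Rn7sk was not tested. Ccnb1ip1, which shares 233 bases with Rpph1, had 2 and 1 expected counts in the gene tables against 6 and 5 in the second tables. Of genes aligned to Rn7sk over at least 200 bases at 90% identity or more there were 11, with summed expected counts of 153 and 151, or 0.036% and 0.038% of those of Rn7sk. The highest of them, Gm24146, had 77.7 and 81.5 expected counts, and Gm24447, which matches bases 1 to 241 of Rn7sk exactly, had 1.71 and 0. No other gene reached that alignment to Terc.

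Malat1 has 4 annotated transcripts, and the tables divided its reads differently. The full-length transcript Malat1-201 had 1727 and 1290 TPM in the first transcript tables, which carry the same kind of values as the gene tables, against 3241 and 2425 TPM in the second tables. That was 42.9% and 41.4% of the TPM of the gene in the first tables, against 99.8% in both replicates of the second tables. In counts it held 91.4% and 90.8% in the first tables. The short transcripts Malat1-204, Malat1-202 and Malat1-203, of 656, 556 and 485 bases, lie inside the full-length one. Malat1-204 had 1001 and 868 TPM in the first tables against 5.03 and 4.54 TPM in the second. Malat1-202 had 870 and 695 TPM in the first tables against 1.25 and 0, and Malat1-203 had 425 and 267 against 0.776 and 0. How much of the Malat1 signal came from short transcripts therefore depended on the table, while the total count of the gene differed by a log2 of only -0.19.

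Neat1 has a long transcript, Neat1-201 of 20771 bases, and a short one, Neat1-202 of 3004 bases, which starts near the same 5′ end. In the first tables Neat1-201 had 32.5 TPM in replicate 1 against 18.4 TPM in replicate 2, from 20693 and 12110 expected counts. Neat1-202 stood at 60.4 and 62.8 TPM, from 5401 and 5808 expected counts. The second tables gave 56.1 and 32.0 TPM for Neat1-201 and 89.8 and 98.9 TPM for Neat1-202. As the tables divide the reads, the short isoform thus had the higher TPM in both replicates and both kinds of table. The long one held most of the counts, 78.6% and 67.0% in the first tables. The exons of Neat1-202 lie inside Neat1-201, so reads there can come from either isoform. How well the tables divide these shared reads was not tested. The long over short TPM ratio was 0.538 in replicate 1 and 0.293 in replicate 2 in the first tables, and 0.625 and 0.323 in the second tables.

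Of the other transcripts, Neat1-203 had 3.54 and 3.49 TPM in the first tables against 24.2 and 19.2 in the second, and Neat1-204 had 6.39 and 3.04 against 0 and 0. Annotated inside Neat1 on the same strand are the misc_RNA genes Gm27533, Gm27505 and Gm28006, which took 57.2 and 47.5, 17.6 and 18.2, and 8.28 and 1.35 expected counts in the gene tables. All were at 0 in the second tables. Inside Malat1, Gm27694 was at 0 throughout, and Gm37376 on the opposite strand had 5 and 5 expected counts.

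**Figure D4:**
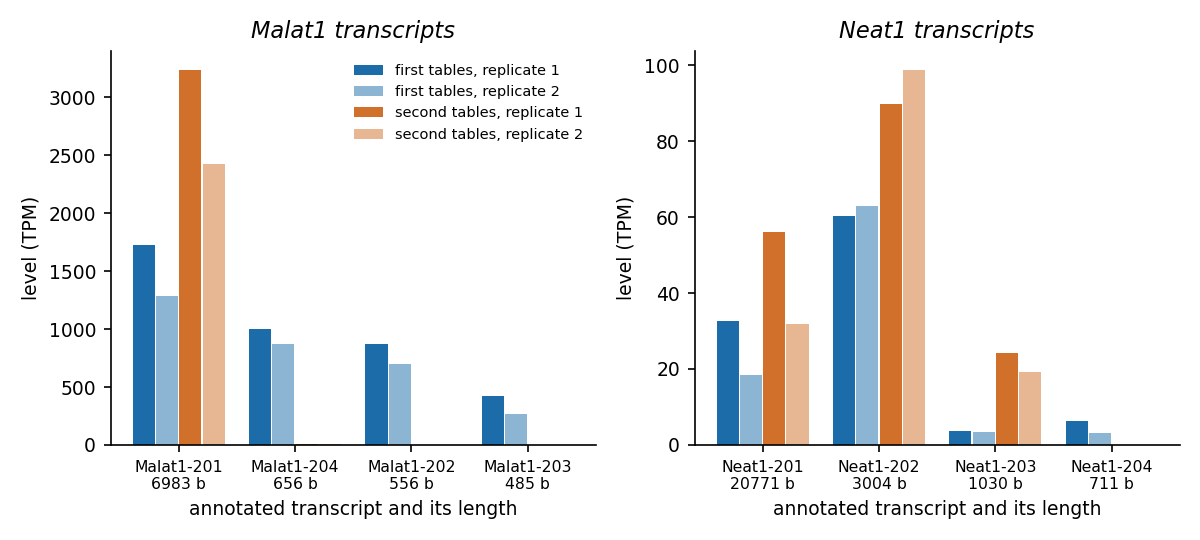
TPM of each annotated transcript of Malat1 (left) and Neat1 (right), labelled with its length in bases; each bar is 1 replicate in 1 kind of table, blue for the first transcript tables and orange for the second, dark for replicate 1 and pale for replicate 2. Short Malat1 transcripts carry 267 to 1001 TPM each in the first tables and 0 to 5.03 TPM in the second. Neat1-201 is higher in replicate 1 in both kinds of table, while Neat1-202 is slightly lower there.

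Between the replicates, by TMM-scaled counts of the gene tables, Neat1 and Malat1 differed most among the 6 RNAs. Log2 ratios of replicate 1 over replicate 2 were taken from expected counts scaled by TMM. The ratio was 0.55 (interval 0.52 to 0.57) for Neat1 and 0.37 (interval 0.36 to 0.37) for Malat1. In deposited TPM the order was another, with 0.23 for Neat1, 0.37 for Malat1 and -0.24 for Terc. By TMM the ratio was 0.11 (interval 0.10 to 0.11) for Rn7sk and 0.15 (interval 0.14 to 0.17) for Rmrp. It was -0.02 (interval -0.04 to -0.01) for Rpph1 and -0.28 (interval -0.60 to 0.03) for Terc, whose interval holds 0. For Rpph1 the sign turned under spike-in scaling, to 0.06, and in deposited TPM, to 0.02. With 1 library a side these ratios describe the libraries, and no test was made.

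No member passed 2-fold at a mean count of at least 100, against 3.21% of 13728 genes. The share of these genes that lay at least as far from 0 was 6.08% for Neat1, 10.4% for Malat1, 15.8% for Terc, 37.5% for Rmrp, 51.2% for Rn7sk and 89.1% for Rpph1. A ratio above 0 was found in 44.7% of all genes with TMM scaling and in 65.7% with spike-in scaling. As the tables divide the reads, the higher Neat1 count of replicate 1 lay in the long isoform. Neat1-201 had a ratio of 0.78 (interval 0.74 to 0.81), a 1.71-fold higher count in replicate 1, and Neat1-202 of -0.10 (interval -0.15 to -0.05). In the second tables the ratios were 0.73 for Neat1-201 and -0.22 for Neat1-202. All 6 adrenal cortex markers (median log2 ratio -0.15) and all 5 medulla markers (median -0.29) were lower in replicate 1 under TMM and spike-in scaling. Size factors gave the same, but they were 1 in both replicates. They left counts unscaled and shifted log2 ratios by only -0.0037 against TMM. Replicate 1 also had the higher pancreas, kidney and red blood cell markers and the lower liver and muscle markers given above. The part of these markers in the difference in Malat1 and Neat1 was not tested. In bulk tissue, fewer cells of a type and less RNA per cell cannot be told apart.

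**Figure D5:**
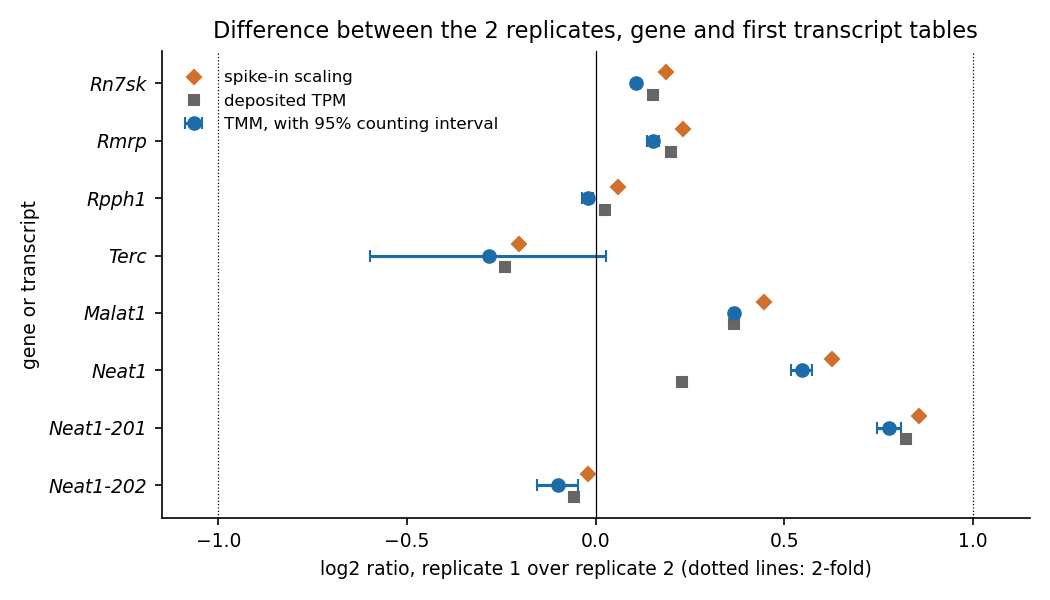
Log2 ratio of replicate 1 over replicate 2 for the 6 genes and the main Neat1 isoforms, from counts scaled by TMM (blue, with 95% counting intervals), counts scaled by spike-ins (orange) and deposited TPM (grey). Dotted lines mark 2-fold. All genes lie inside them, Neat1-201 is farthest out at 0.78, and Rpph1 changes side with the scaling.

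The genes of the proteins that work with these RNAs were all detected in the gene tables, that is, at 1 TPM or more in both replicates. No share of all genes at that level is given beside the counts of detected genes. In every list these counts are therefore a description and mark nothing particular to its genes. For the 7SK, RNase P and RNase MRP particles their levels in the gene tables were far below those of the RNAs. In the second tables the order was turned, with sums of 227 ± 13.0 TPM for the genes of the 7SK particle and 201 ± 2.79 TPM for the proteins of RNase P and RNase MRP (SD, n = 2 each), against 1.51 TPM for Rn7sk, 7.36 TPM for Rpph1 and 0 for Rmrp. All 7 genes of the 7SK particle were detected and summed to 132 ± 7.90 TPM (SD, n = 2). Its highest members were Cdk9, the kinase of P-TEFb, at 35.7 ± 2.57 TPM, its cyclin partner Ccnt1 at 21.5 ± 2.47 TPM, Mepce, which caps 7SK RNA, at 20.3 ± 0.877 TPM, and the inhibitor Hexim1 at 18.8 ± 0.983 TPM (SD, n = 2 each). All 11 protein genes of RNase P and RNase MRP were detected and summed to 111 ± 4.11 TPM (SD, n = 2). They were led by the subunits Pop4 at 19.9 ± 1.57, Pop5 at 17.6 ± 1.28, Rpp21 at 15.7 ± 0.629 and Rpp25l at 14.9 ± 1.80 TPM (SD, n = 2 each). SNAPc starts transcription at the promoters of Rn7sk, Rpph1 and Rmrp. The 18 genes listed for RNA polymerase III and SNAPc summed to 193 ± 11.0 TPM (SD, n = 2). That list also held the initiation factor genes Tbp, Brf2 and Bdp1. It was led by Snapc4 at 18.1 ± 4.09, Tbp at 14.8 ± 1.36, Polr3c at 14.2 ± 1.87 and Snapc2 at 13.6 ± 0.431 TPM.

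The protein genes of telomerase stood both above and below the 17.3 TPM of Terc. Of them 8 of 8 were detected, and they summed to 145 ± 4.36 TPM (SD, n = 2). The proteins that bind the H/ACA part of Terc led the list, with Nop10 at 33.7 ± 2.60, Gar1 at 29.1 ± 0.276, Nhp2 at 26.7 ± 0.0141 and Dkc1 at 22.7 ± 0.191 TPM (SD, n = 2 each). Tert, the reverse transcriptase, was the lowest, with 3.32 TPM in replicate 1 against 3.22 in replicate 2.

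All 13 paraspeckle protein genes were detected and summed to 1302 ± 95.3 TPM (SD, n = 2). Hnrnpk, an RNA-binding protein, led at 378 ± 11.0 TPM, and Ewsr1 stood at 186 ± 31.8 and Tardbp at 125 ± 1.27 TPM (SD, n = 2 each). The ratio of replicate 1 over replicate 2 was above 0 in 12 of 13 with TMM or size factors and in 13 of 13 with spike-in scaling. The median log2 was 0.05 with TMM, against -0.02 over all genes. Of all genes, 44.7% lay above 0 with TMM and 65.7% with spike-in scaling. All 10 nuclear speckle protein genes were detected and summed to 1042 ± 95.3 TPM (SD, n = 2). Srrm2, a scaffold protein of speckles, led at 303 ± 39.9 TPM, followed by the splicing factors Srsf1 at 122 ± 0.0566 and Srsf2 at 118 ± 2.38 TPM, and by Son, another speckle scaffold, at 97.8 ± 12.7 TPM (SD, n = 2 each). The ratio was above 0 in 9 of 10 with TMM, 8 of 10 with size factors and 10 of 10 with spike-in scaling, and the median log2 was 0.14 with TMM. In the other lists the TMM ratio was above 0 in 3 of 7 genes of the 7SK particle (median -0.01) and 3 of 11 protein genes of RNase P and RNase MRP (median -0.20). It was above 0 in 3 of 8 telomerase genes (median -0.04) and 9 of 18 genes listed for RNA polymerase III and SNAPc (median -0.01). With spike-in scaling these counts were 5, 3, 6 and 14, beside a share of 65.7% of all genes. In none of these lists did a gene pass 2-fold between the replicates, against 3.21% of all genes, and in the second tables all of their genes were again at 1 TPM or more.

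Of 12 other long noncoding RNAs, 11 were detected in the gene tables and summed to 1538 ± 53.0 TPM (SD, n = 2), against 3571 for Malat1. In the second tables the list summed to 2800 and 2889 TPM, against 3248 and 2429 TPM for Malat1, so the order there turned between the replicates. The imprinted RNAs Meg3 and Rian stood at 777 ± 14.8 and 381 ± 57.2 TPM, the snoRNA host gene Gas5 at 127 ± 4.86 TPM, and Xist, which coats the inactive X chromosome, at 114 ± 16.8 TPM (SD, n = 2 each), close to Neat1.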

How the data were processed

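Total RNA-seq of 2 adrenal gland samples, grouped by tissue, age, sex and strain, was used as deposited. Per the file headers, the gene tables made by the authors give an expected count, an effective length, TPM, a posterior mean TPM and a credibility interval for 81881 sequences. The first transcript tables give the same per transcript, with a deposited percent of each gene that was not used. The second deposited tables give an estimated count, an effective length and TPM for 141864 sequences and were summed to genes. The authors' notes name assembly mm10, annotation M21, transcriptome alignments behind the first tables and read files behind the second. The column names are those of RSEM and kallisto; which tools and versions made the tables is not given in the sources.

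Genes were matched by identifier to GENCODE M21; all 55450 of the second tables matched. Sequences came from its transcripts, and RefSeq lengths from GRCm38.p6. Levels are deposited TPM as mean and SD over 2 replicates. Replicates were compared by log2 ratios of TMM-scaled expected counts, to which a prior of 0.5 was added. Tables were compared by log2 TPM ratios with a pseudocount of 0.01, over genes whose mean count reached 100. A 2-fold ratio is a rule of size, not a test. Copies were found with BLAST at an E-value of 1e-10. Named genes were the members, the 4 highest genes of each partner list, list genes past 2-fold, and the 3 genes nearest in length to each short RNA; 1 gene that the rule names is not reported here. The members and lists were chosen with earlier results of these data known.

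TMM factors came from edgeR 4.0.16 and size factors from DESeq2 1.42.0, under R 4.3.3. The rest used BLAST 2.17.0 and Python 3.11.15 with scipy 1.17.1, pandas 2.3.3, numpy 2.4.6 and matplotlib 3.10.9. The ratio step was tested on simulated data. Alternatives were other scalings, units, denominators and filters, and each replicate left out. No molecular identifiers were used, so reads are not independent molecules and intervals cover counting error only.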

Additional observations from a re-analysis of the deposited data

How the results depend on the processing

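No paired analysis was possible because there is 1 group, so no replicate number is shared between groups. Levels of Rn7sk, Rpph1, Rmrp, Terc, Malat1 and Neat1 became 1.51, 7.36, 0, 28.7, 2839 and 160 TPM from the second tables. With counts per annotated length, Rn7sk, Rpph1, Rmrp and Neat1 stood at 50510, 8863, 9690 and 118 on the TPM scale, and with a denominator of annotated nuclear genes at 62459, 11141, 13143 and 106 TPM. The posterior mean TPM was lower for every member. It was 54840 for Rn7sk, 9780 for Rpph1, 11541 for Rmrp, 17.0 for Terc, 3495 for Malat1 and 93.5 for Neat1. Rpph1 alone moved beyond its spread between replicates, where the SD was only 113 TPM. Leaving out 1 replicate returns the value of the other. Such ranges of levels, table ratios and transcript shares are therefore no check of the results. Without either replicate the levels ranged over 53120 to 58973 TPM for Rn7sk, 9915 to 10075 for Rpph1 and 10982 to 12608 for Rmrp. They ranged over 15.8 to 18.7 TPM for Terc, 3119 to 4023 for Malat1 and 87.7 to 103 for Neat1.

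For the ratio of replicate 1 over replicate 2, spike-in scaling shifted log2 values by 0.08, giving 0.19 for Rn7sk, 0.059 for Rpph1, 0.23 for Rmrp, 0.45 for Malat1 and 0.63 for Neat1. Deposited TPM gave 0.15 for Rn7sk, 0.023 for Rpph1, 0.20 for Rmrp and 0.23 for Neat1. The lower value for Neat1 goes with an effective length of 8312 bases in replicate 1 and 6473 in replicate 2. The second tables gave 0.33 for Malat1, 0.51 for Neat1, and, from 3 and 2 and from 16 and 7 counts, 0.46 for Rn7sk and 1.11 for Rpph1. DESeq2 size factors were 1 in both replicates, which left counts unscaled and shifted log2 values by -0.0037 against TMM. That setting could hardly move a value. Neither it nor a prior of 5 counts moved a member beyond its counting interval. Without a filter on low counts 7155 genes passed 2-fold, in place of 441.

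For the log2 ratio of the tables, counts gave 17.34 for Rn7sk, 12.67 for Rpph1, 1.22 for Terc, -0.19 for Malat1 and -0.18 for Neat1, in place of 15.22, 10.54, -0.73, 0.33 and -0.75 by TPM. Counts per annotated length gave 16.63, 11.96, 0.51, 0.074 and -0.80 in the same order. A pseudocount of 1 TPM gave 14.46 for Rn7sk and -0.70 for Terc. Without either replicate the ratios ranged from 14.97 to 15.46 for Rn7sk, 9.93 to 11.15 for Rpph1, -0.75 to -0.71 for Terc, 0.31 to 0.36 for Malat1 and -0.77 to -0.73 for Neat1. Genes called lower fell to 261 by counts and 1463 per annotated length, against 3307 by TPM. With no filter but a count above 0 in every table, which leaves out Rmrp, 6536 were called lower and 111 higher, in place of 204. Called genes ranged from 206 to 208 higher and 4033 to 4294 lower without either replicate. Malat1-201 held 99.8% of the gene's TPM in the second tables against 42.1%, and 41.4% to 42.9% without either replicate; Neat1-201 ranged from 20.97% to 31.6%. Of the other small structured RNAs 3 were detected in the second tables, against 16. The causes were not tested. Depth limits Terc most, at 158 and 193 counts.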

Other observations

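Other small structured RNAs held much of the TPM of the gene tables, most of it in Rn7s1 and Rn7s2. These stood at a mean of 152146 TPM each, so the summed level of the list mainly reflects 7SL RNA. Of 23 records of 20 listed symbols, 16 were at 1 TPM or more in both replicates, and the records summed to 311690 ± 3662 TPM (SD, n = 2). The 7SL RNA genes Rn7s1 and Rn7s2, the RNA of the signal recognition particle, carried identical values, 150782 and 153510 TPM each, so their reads were split evenly and only the sum is a measurement. Rnu2-10, a U2 spliceosomal RNA, stood at 3777 and 3673 TPM, and Rnu3b1, a U3 RNA of ribosomal RNA processing, at 1292 and 1250 TPM summed over its 2 records. Rprl3, a relative of the RNase P RNA gene, stood at 710 and 737 TPM. Only 3 of the records were detected in the second tables.

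Scarna2, a small Cajal body RNA of 414 bases, had 6960 and 6533 expected counts in the gene tables and 1961 and 1859 estimated counts in the second tables, so like Terc it was counted in both. One record of Rnu3a, another U3 gene, was the only one of the list past 2-fold between the replicates, with 692 expected counts in replicate 1 and 2.50 in replicate 2. The other record had 1311 and 1899. The records share 213 bases, and their sums, 2003 and 1901 counts, were close. For Rmrp the log2 ratio of replicate 1 over replicate 2 was 0.25 for the ribozyme record, -0.05 for the lincRNA record and 0.15 for the sum.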
